A study of Homo sapiens with 9 samples.

Results

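Kinesins are motors that walk along microtubules and carry vesicles, organelles and mRNA. The conventional motor, kinesin-1, is built from KIF5 heavy chains and light chains, and its light chains hold the cargo, in many cases through adaptor proteins on the cargo. QKI-5 is the nuclear isoform of Quaking, a STAR-family RNA-binding protein that recognises ACTAAC, in DNA letters, often with a further TAAC-type element nearby, and regulates splicing from intronic sites. QKI-5 contacts were examined in KLC1, a kinesin-1 light chain, CLSTN1 (calsyntenin-1), a membrane protein that links light chains to vesicles, SPAG9 (JIP4), a scaffold that binds both kinesin-1 and dynein, and KIF13A, a kinesin-3 motor of recycling endosomes. A peak belonged to a gene when it lay on the gene's strand with its centre inside the protein-coding gene span of GENCODE 44 on hg19. This gave 102 of the 24037 peaks listed, of which 72 were in KLC1, 13 in CLSTN1, 9 in SPAG9 and 8 in KIF13A.

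The peaks came from HITS-CLIP of endogenous QKI-5 in mesHMLE cells, the mesenchymal derivative of the immortalised human mammary epithelial line HMLE, obtained with 2.5 ng/ml TGF-β1 for at least 14 days and crosslinked with 600 mJ/cm2 of UV. The 7 immunoprecipitation libraries were technical replicates cut from the gel at the QKI monomer size (3 libraries) or the dimer size (4 libraries, 1 of them made with another reverse transcriptase), and 2 libraries of size-matched input served as control. The immunoprecipitation libraries were pooled and 1 list was called against the input. Each peak therefore has 1 height (a whole-number signal) with no replicate error, there is no second condition, and nothing could be tested between groups. Library depths are not given with the list, and heights also depend on how abundant a transcript is, which was not measured here; fewer transcripts and less binding per transcript cannot be told apart. Over the 24019 nuclear peaks the median height was 23 (range 5 to 42903) and the median width 61 nt. No peak lay on the opposite strand within the span of any of the 4 genes.

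The 4 genes were unequal. KLC1 held 70.6% of their peaks and 80.0% of the summed height, and ranked 6th of 20163 coding genes by number of peaks. CLSTN1 ranked 356th, SPAG9 shared rank 563 and KIF13A shared rank 649. These ranks count peaks as listed. Joining peaks within 50 nt left 35 runs in KLC1, and genes were not ranked by runs. A peak occurred in 23.6% of coding genes, and 8 or more peaks, the number reached by each of the 4, in 3.72%. The cut of 8 is the lowest count among the 4 genes, which were chosen with earlier results of these data known. All 4 therefore pass it by construction, and the share gives only a scale. Per 10000 nt of gene span the density was 4.73 peaks in KLC1, 1.37 in CLSTN1, 0.567 in SPAG9 and 0.350 in KIF13A. KLC1 peaks ranged from 10 to 648 in height with a median of 27.5, and those of CLSTN1 from 12 to 152 with a median of 34. In SPAG9 the heights ran from 18 to 88 (median 24), and in KIF13A from 19 to 43 (median 25), both medians close to that of all peaks. A height of 100 or more was reached by 12 of the 72 KLC1 peaks, 1 of the 13 CLSTN1 peaks and none in SPAG9 or KIF13A, beside 3.85% of all nuclear peaks.

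**Figure D1:**
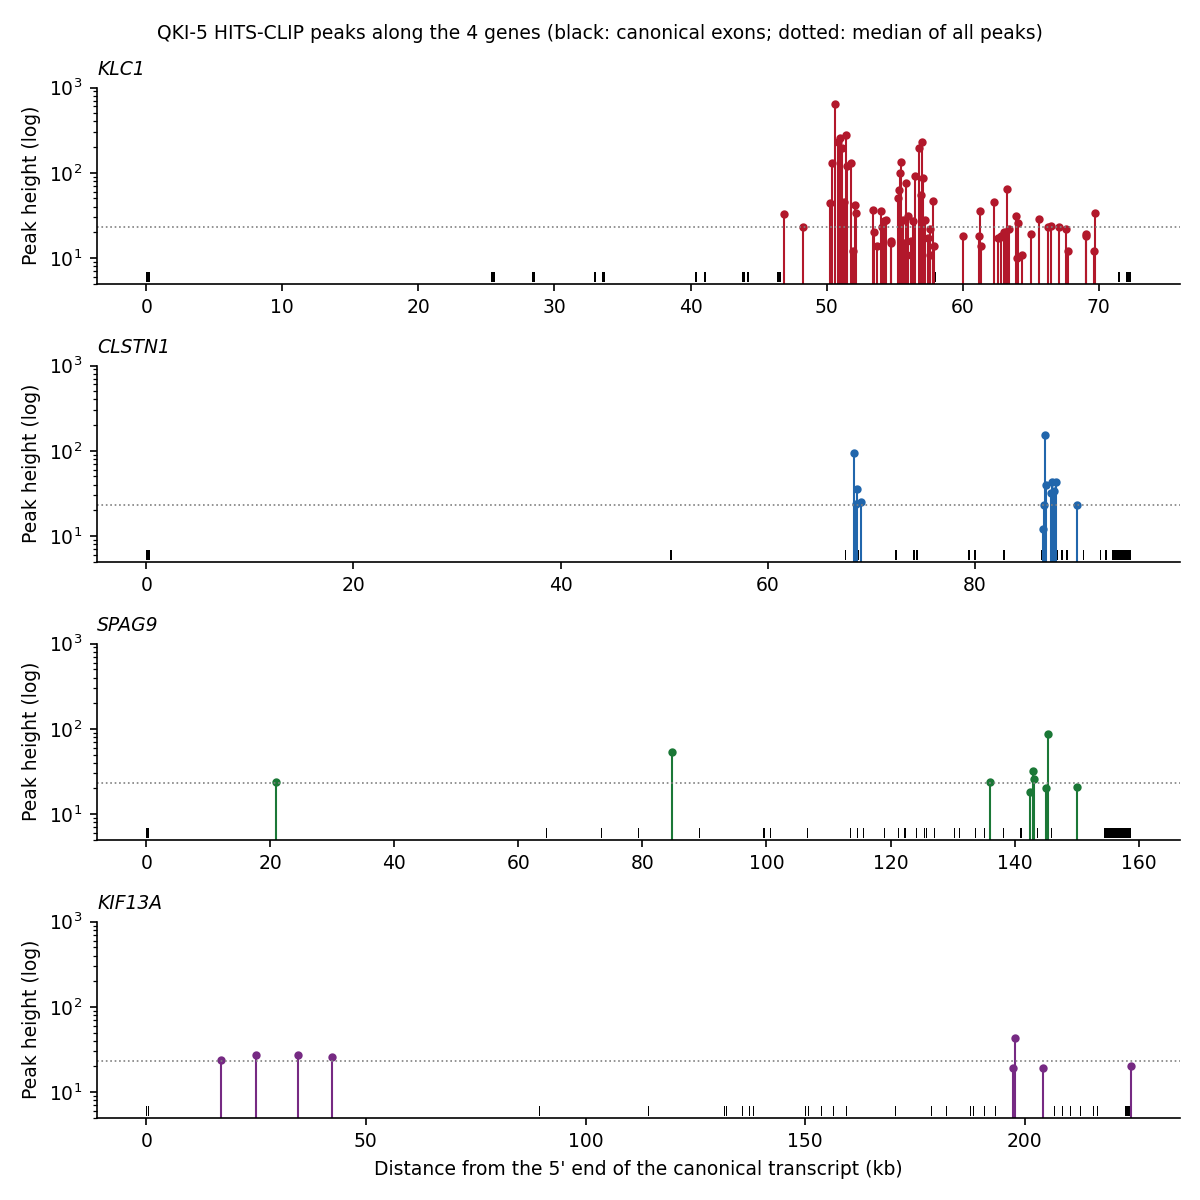
Peaks along KLC1, CLSTN1, SPAG9 and KIF13A. The x axis is the distance from the 5′ end of the canonical transcript in kb, the y axis the peak height on a log scale, each point is 1 peak, black boxes are canonical exons and the dotted line is the median of all peaks (23). KLC1 peaks gather in the 3′ part of the gene, and those of CLSTN1 in a pair of clusters.

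**Figure D2:**
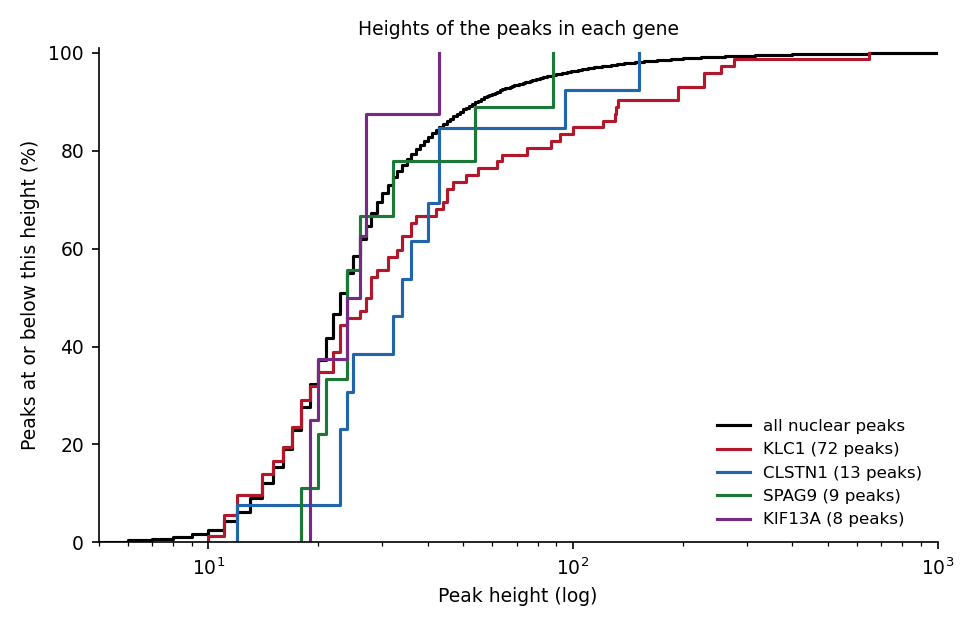
Cumulative share of peaks (y axis, percent) at or below each height (x axis, log scale) for the 4 genes and for the 24019 nuclear peaks; the few taller peaks run beyond the right edge. The KLC1 line departs from that of all peaks above the median, whereas SPAG9 and KIF13A have no peak above 88 and 43.

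In KLC1 (plus strand, chr14:104028233-104180586), QKI-5 contacts were confined to the 3′ portion of the transcript. Introns 1 to 10 of the canonical transcript, which has 17 exons, make up 64.3% of its intron length (44882 nt) and held 0 peaks. Intron 11 had 1 peak of height 33, exon 12 had 1 of height 23 and exon 13 had 1 of height 44. Intron 13 (7535 nt) held 42 peaks, intron 14 (5147 nt) held 9 and intron 15 (8229 nt) held 17, whereas intron 16 (473 nt) and exons 15 to 17 contained no peak centre. The remaining peak, of height 14, was centred in exon 14. KLC1 isoforms are known to differ in the C-terminal tail that these last exons encode.

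Intron 13 alone accounted for 58.3% of the KLC1 peaks and 83.7% of their summed height. It ranked 12th by number of peaks, with abutting peaks not joined, among 182632 canonical introns of coding genes. Of these introns 6490 had any peak, and peaks covered 52.6% of the length of intron 13. All 12 KLC1 peaks of height 100 or more were in this intron. Its median height was 39.5, compared with 18 in intron 14 (range 14 to 45) and 22 in intron 15 (range 10 to 64). Within the intron, 2 stretches carried most of the signal. The leading 1000 nt held 6 peaks with a summed height of 1502 and the next 1000 nt another 6 with 615, followed by 1000 nt without a peak. Signal was low between 3001 and 5000 nt, where the tallest of 11 peaks was 62, and the following pair of 1000-nt stretches had tallest peaks of 133 and 229.

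The tallest KLC1 peak, of height 648, ranked 41st of all nuclear peaks and began 170 nt past exon 13. It was the only one of the 72 with ACTAAC, which began 313 nt past the exon. The motif lay 48 nt upstream of the deposited summit, and the nearest separate TAAC began 9 nt beyond it. This 240-nt peak is shown because it contained 6 copies of TAAC, the shared core of the QKI elements, which are in capitals:
KLC1 tallest peak (chr14:104146053-104146292, plus strand): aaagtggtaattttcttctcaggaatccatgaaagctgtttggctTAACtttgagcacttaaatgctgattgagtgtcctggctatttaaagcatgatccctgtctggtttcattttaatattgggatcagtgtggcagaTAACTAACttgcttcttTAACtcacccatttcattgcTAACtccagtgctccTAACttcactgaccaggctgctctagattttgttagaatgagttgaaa
The next 6 peaks downstream had heights of 229, 255, 194, 45, 276 and 121, and of these the one of height 255 held 1 TAAC and the others held none. Many of these peaks abutted: 24 of the 72 started within 4 nt of the end of the previous one, and joining peaks within 50 nt left 35 runs, the longest with 9 peaks.

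**Figure D3:**
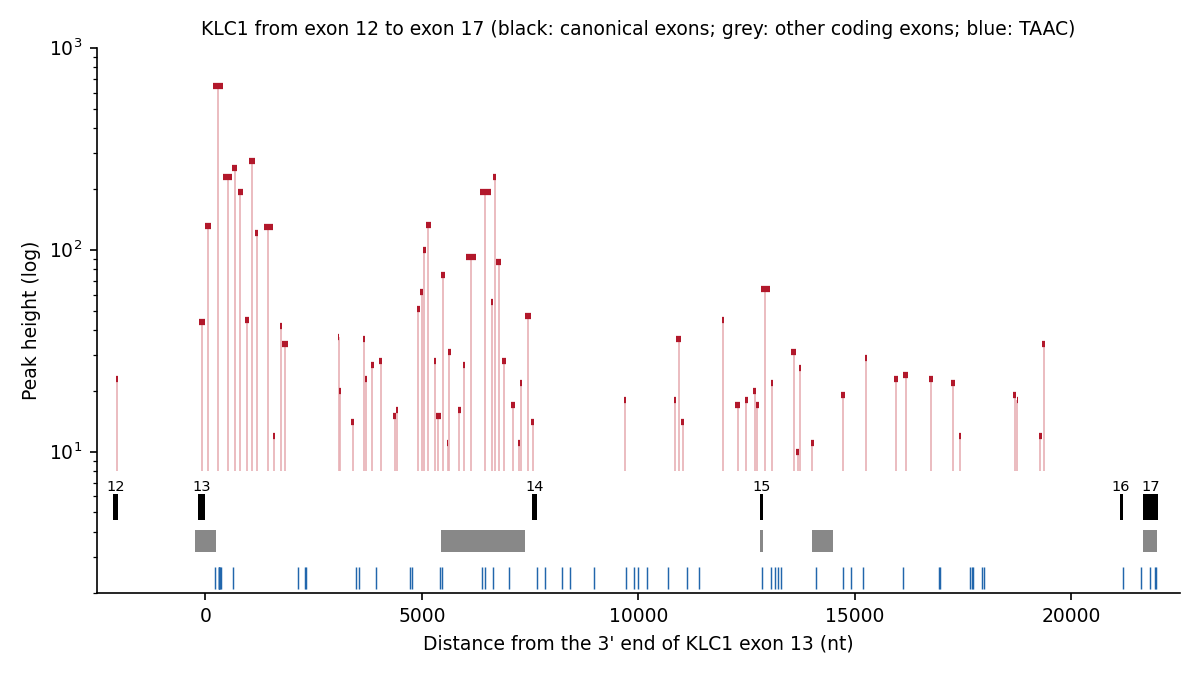
The KLC1 transcript from exon 12 to exon 17. The x axis is the distance in nt from the 3′ end of exon 13, the y axis the peak height (log scale); red segments span the width of each peak, black boxes are canonical exons with their numbers, grey boxes other exons of coding transcripts and blue ticks TAAC. The tallest segments follow exon 13 directly, and a further group lies over and before the grey exons inside intron 13.

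The signal in intron 13 met several annotated processing sites. Of the 20 protein-coding KLC1 transcripts, 8 end inside intron 13 or by reading through exon 13, 5 end inside intron 15 and 6 end at exon 17. Of the 42 peaks in intron 13, 15 were centred over exons of non-canonical coding transcripts. The longest of these exons, which overlap each other, span 1226 and 1280 nt of the 7535-nt intron. The count was not compared with the share of the intron that they occupy. Exon 13 has a pair of 5′ splice sites 27 nt apart, each used by 9 coding transcripts. The inner site lay under the peak of height 44 (chr14:104145727-104145874) and the outer site under the peak of height 131 (chr14:104145876-104146003). Below, the 27 nt that distinguish the exon 13 forms are in capitals, with exon before and intron after them:
KLC1 exon 13 end (chr14:104145838-104145922): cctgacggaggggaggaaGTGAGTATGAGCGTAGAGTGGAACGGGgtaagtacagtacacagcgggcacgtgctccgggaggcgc
A 51-nt exon inside intron 13, present in 4 coding transcripts, was overlapped from acceptor to donor by 1 peak of height 75 (chr14:104151316-104151414). Closest upstream were low peaks of 28 and 15, and further upstream in the same intron lay abutting peaks of 51, 62, 100 and 133. The exon is shown in capitals with 20 nt of intron on either side, since its annotated reading frame ends after 30 nt:
KLC1 51-nt exon (chr14:104151323-104151373): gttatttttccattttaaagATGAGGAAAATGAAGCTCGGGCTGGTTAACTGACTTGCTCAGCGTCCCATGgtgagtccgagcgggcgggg
The acceptor shared by 5 terminal exons at position 104151975 lay under a peak of height 92, and the peaks of 194 and 229 that followed overlapped the longer of these exons. In all, 8 of the 18 splice sites of coding transcripts from exon 12 onward were covered by a peak across the exon-intron junction (4 acceptors and 4 donors). Before exon 12 it was 0 of 23. The stretch from exon 12 on is where the KLC1 peaks lie, and peaks covered 52.6% of intron 13. Across all canonical transcripts, 0.0798% of junctions were covered. That share takes in genes without peaks and leaves out non-canonical sites, so it is not a like comparison. The annotated readthrough gene ENSG00000256500 and short lncRNA genes share the strand, and 36 of the 72 peaks also fell within the span of the former.

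CLSTN1 (minus strand, chr1:9788984-9884042) had its 13 peaks in 3 introns and 1 exon. Intron 11 (1455 nt) held 8, intron 3 (1171 nt) held 3 and intron 4 held 1 of height 25, leaving 1 of height 23 in exon 15. The exons immediately upstream of introns 11 and 3 are short: exon 11 is 57 nt and exon 3 is 30 nt. Both are among the alternative exons that the study lists as changed during EMT and after QKI-5 knockdown. Their sequences are given with the exon in capitals and 20 nt of intron on either side:
CLSTN1 exon 11 (chr1:9797556-9797612): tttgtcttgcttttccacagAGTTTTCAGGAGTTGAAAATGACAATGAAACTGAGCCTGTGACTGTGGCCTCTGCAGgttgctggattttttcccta
CLSTN1 exon 3 (chr1:9816539-9816568): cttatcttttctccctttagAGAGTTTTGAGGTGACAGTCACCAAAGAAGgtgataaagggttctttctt
From exon 11 downstream, the heights were 12, 23, 152, 40, 32, 43, 34 and 43. The nearest peak began 63 nt past the exon, the tallest 279 nt past it, and the last ended 70 nt before exon 12, so that contacts spread over the whole intron and covered 46.5% of it. The last peak was the only CLSTN1 peak with ACTAAC. Its 3 TAAC elements, in capitals, contrast with the 3 peaks nearest to the exon, which had none:
CLSTN1 intron 11, height 12 (chr1:9797445-9797492, minus strand): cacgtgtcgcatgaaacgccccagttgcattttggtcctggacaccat
CLSTN1 intron 11, height 23 (chr1:9797283-9797442, minus strand): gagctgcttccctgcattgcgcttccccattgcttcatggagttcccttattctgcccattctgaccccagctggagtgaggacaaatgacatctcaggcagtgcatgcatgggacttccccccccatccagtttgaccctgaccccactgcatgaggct
CLSTN1 intron 11, height 152 (chr1:9797208-9797276, minus strand): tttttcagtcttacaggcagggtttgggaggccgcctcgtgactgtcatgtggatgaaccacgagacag
CLSTN1 intron 11, height 43 (chr1:9796171-9796263, minus strand): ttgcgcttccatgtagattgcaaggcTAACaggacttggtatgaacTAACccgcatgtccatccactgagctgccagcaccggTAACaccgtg
In intron 3 the heights were 95, 24 and 36 in the direction of transcription. The tallest began 761 nt past exon 3 and the last ended 40 nt before exon 4, so these contacts were nearer to the downstream exon. No peak lay in the introns upstream of exon 11 (3539 nt) or exon 3 (16761 nt).

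SPAG9 (minus strand, chr17:49039535-49198229) had 9 separate peaks over 158695 nt. They were in introns 1 (height 24), 5 (54), 24 (24), 26 (26, 32 and 18) and 27 (88 and 20) and in exon 29 (21). The alternative exon of SPAG9 that the study lists is 39 nt long and lies inside canonical intron 27, where it belongs to a non-canonical coding transcript. The peak of height 20 ran across its 5′ splice site, from inside the exon to 25 nt into the intron. The tallest SPAG9 peak, of height 88, began 325 nt past the exon, and 1206 nt of intron upstream of the exon held none. The exon (capitals) and both peaks, neither of which contained TAAC, read as follows:
SPAG9 39-nt exon (chr17:49053224-49053262): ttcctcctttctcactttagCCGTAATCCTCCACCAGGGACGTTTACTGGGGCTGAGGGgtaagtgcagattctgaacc
SPAG9 height 20 (chr17:49053199-49053251, minus strand): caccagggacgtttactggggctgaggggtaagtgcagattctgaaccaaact
SPAG9 height 88 (chr17:49052816-49052898, minus strand): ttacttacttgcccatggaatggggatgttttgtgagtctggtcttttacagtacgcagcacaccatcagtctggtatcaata
ACTAAC was found in 1 SPAG9 peak, in intron 24, at its 5′ edge and 110 nt past exon 24:
SPAG9 intron 24, height 24 (chr17:49062132-49062173, minus strand): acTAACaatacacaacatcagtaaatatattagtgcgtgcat

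KIF13A (minus strand, chr6:17759414-17987866) was the longest gene and the least contacted. Intron 2, of 88873 nt, contained 4 well-separated peaks with heights of 26, 27, 27 and 24, the nearest of them 16349 nt from exon 2. Of these, 3 contained TAAC and 1 contained ACTAAC, printed here with TAAC in capitals:
KIF13A intron 2, height 26 (chr6:17945559-17945612, minus strand): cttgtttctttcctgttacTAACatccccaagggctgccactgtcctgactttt
Introns 25, 26 and 29 had 1 peak each, of 19, 43 and 19, and a peak of height 20 lay beyond the 3′ end of the canonical transcript inside the gene span. Listed alternative exons of KIF13A numbered 4, with lengths of 105, 78, 39 and 147 nt; the 78-nt exon is in the EMT list alone. The 39-nt exon 26 had the tallest KIF13A peak 44 nt past its 5′ splice site and the peak of height 19 ending 439 nt before its 3′ splice site. It is shown in capitals, followed by the downstream peak, which held no TAAC:
KIF13A exon 26 (chr6:17790103-17790141): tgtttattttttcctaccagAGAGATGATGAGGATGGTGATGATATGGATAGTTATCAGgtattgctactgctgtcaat
KIF13A intron 26, height 43 (chr6:17789997-17790058, minus strand): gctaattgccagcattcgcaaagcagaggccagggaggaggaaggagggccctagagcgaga
For the 147-nt exon 25, the downstream intron as given by the listed coordinates runs past exon 26 to exon 27, so it took in both of these peaks, the nearer 3859 nt from exon 25. Neither the 105-nt exon 38 nor the 78-nt exon 34 had a peak in the exon or in its adjacent introns.

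Across the 7 listed exons of CLSTN1, SPAG9 and KIF13A, 5 had a peak in the exon or an adjacent intron and at 3 a peak reached into the exon or came to less than 250 nt from it. Over all 157143 internal coding exons of canonical transcripts, 5.94% and 0.815% met these conditions, without regard to transcript abundance or intron length. The 3 genes entered the comparison with their peaks known. The peaks concerned were 15, the same number as lay elsewhere in these genes. Every one of the 5 exons had a peak downstream or across its 5′ splice site, and 1 exon also had a peak upstream. For the 147-nt exon of KIF13A, the downstream peaks were the same ones that lay on either side of the 39-nt exon. The 39-nt exons of SPAG9 and KIF13A and the 57-nt exon of CLSTN1 were those with a peak within 250 nt, and each of these peaks was at the downstream end. All 7 exons had AG and GT splice sites and a length divisible by 3, compared with 40.8% of those internal coding exons. Of the 7, 4 were 60 nt or shorter, compared with 8.43%. No KLC1 exon was among the coordinates taken from these lists, which were not all held in full. Only skipped exons were taken. Paired 5′ splice sites and alternative last exons, such as those of KLC1, were not looked up, so whether the study lists a KLC1 change was not settled here.

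**Figure D4:**
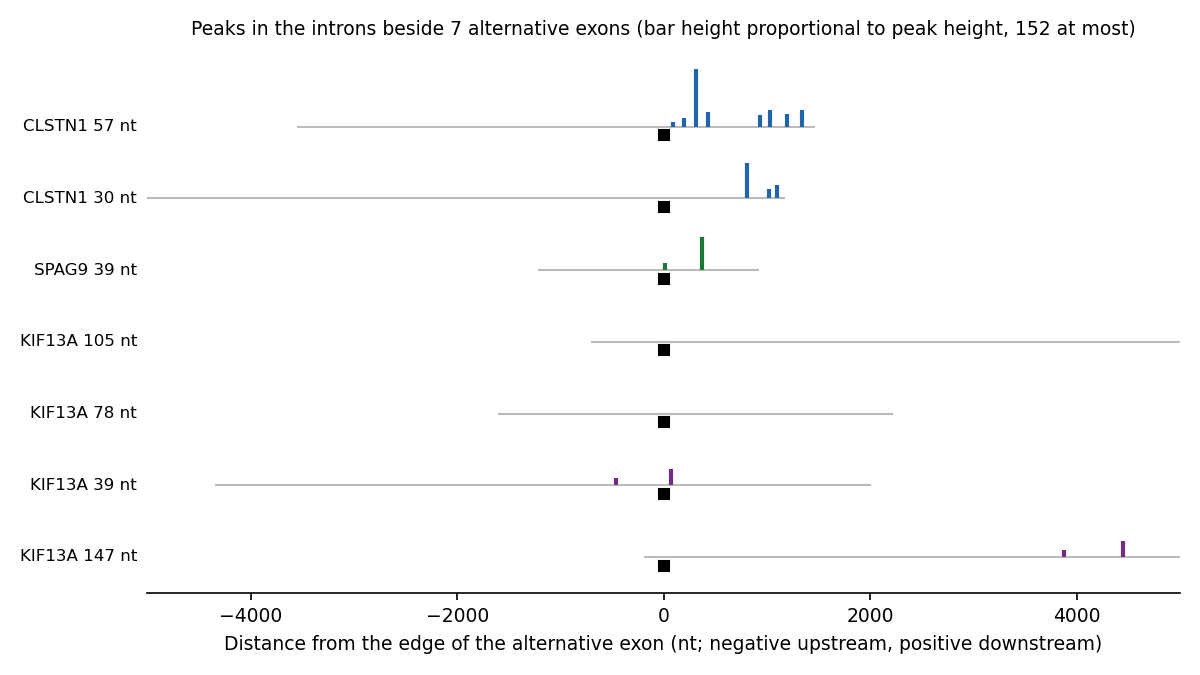
Peaks beside the 7 alternative exons of CLSTN1, SPAG9 and KIF13A. Exons are black squares at 0, the x axis is the distance in nt from the exon edge (negative upstream), grey lines are the adjacent introns (cut at the axis limits), and the height of each coloured bar is proportional to peak height, 152 being the tallest. Bars stand to the right of the exon in 5 of the 7 lines, and to the left in 1.

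The ACTAAC motif was uncommon in the KLC1 peaks, and in the other genes its share was close to that of all peaks. It was present in 4 of 102 (3.92%, 95% Wilson interval 1.54 to 9.65%, counting error only), beside 10.1% of all nuclear peaks. In KLC1 it was found in 1 of 72 peaks (1.39%, 0.246 to 7.46%); in the other genes it was 3 of 30 (10.0%, 3.46 to 25.6%). The intervals treat peaks as independent, although 24 of the KLC1 peaks started within 4 nt of the previous one, so they are too narrow. The spans of the 4 genes contained 78 ACTAAC sequences, and 4 of them lay within a peak. TAAC occurred at 2.22 per 1000 nt of KLC1 peaks, at 4.76 in CLSTN1, 1.99 in SPAG9 and 7.30 in KIF13A, whereas all nuclear peaks had 5.27. In KLC1 intron 13 the frequency of TAAC was similar under peaks (3.03 per 1000 nt) and between them (2.52), and in CLSTN1 intron 11 it was 7.39 under peaks and 1.29 between them. In KIF13A intron 2 it was likewise higher under the 4 peaks (13.04) than between them (2.94). The order was the opposite in CLSTN1 intron 3 (0 under peaks, 7.64 between them) and SPAG9 intron 26 (0 and 3.43). In KLC1 introns 14 and 15, TAAC was at 0 and 0.759 per 1000 nt under peaks and at 2.66 and 2.17 between them. These rates rest on few elements. Under peaks there were 12 in KLC1 intron 13, 5 in CLSTN1 (all in intron 11), 3 in KIF13A (all in intron 2) and 1 in SPAG9. Of the 12 in KLC1 intron 13, 6 lay in the single tallest peak, so the rate under peaks there rests largely on that peak.

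Most peaks were intronic, which the study also reports for its QKI-5 sites in general. The same share over all peaks was not computed here. The centre of 80 of the 102 (78.4%) lay in no exon of any coding transcript of the gene, and that of 97 (95.1%) in no exon of the canonical transcript. Both counts include the KIF13A peak beyond the end of the canonical transcript. The gap between the counts arose in KLC1, where 16 peaks were over exons that the canonical transcript lacks, and in SPAG9, where the 39-nt exon is such an exon.

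Each of the other listed genes of kinesin-based transport had fewer peaks than KLC1. Of 60 genes listed (44 motors, 4 light chains and 12 adaptors or motor partners), 28 had a peak. Without the 4 genes described it was 24 of 56 (42.9%, 30.8 to 55.9%), beside 23.6% of coding genes. Neither gene length nor expression was matched, and the 23.6% takes in genes whatever their expression in these cells. The list was chosen with earlier results of these data known, so the interval is no test of a preference for these genes. KLC1 was the only light chain with a peak: KLC2, KLC3 and KLC4 had 0. Among the adaptors, CLSTN2, CLSTN3, MAPK8IP1 and MAPK8IP2 had 0, and MAPK8IP3 (JIP3), which resembles SPAG9, had 15 with a tallest height of 59. The most peaks outside the 4 genes were in KIF2A (22, tallest 595), a kinesin-13 that depolymerises microtubule ends, and KIF18B (17, tallest 114), a mitotic kinesin-8. MAPK8IP3 was next, followed by KIF4A, a chromosome-associated kinesin-4, with 9 (tallest 39). KIF22, a chromosome-binding kinesin-10, and STARD9, a kinesin-3 of the centrosome, had 8 each (tallest 80 and 32). Of the kinesin-1 heavy chains, KIF5B had 3 peaks, KIF5A 2 and KIF5C 0. KIF1B, a vesicle motor named here for its height, had 5 peaks and a tallest of 1022. KIF13B, the closest relative of KIF13A, had 0.

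**Figure D5:**
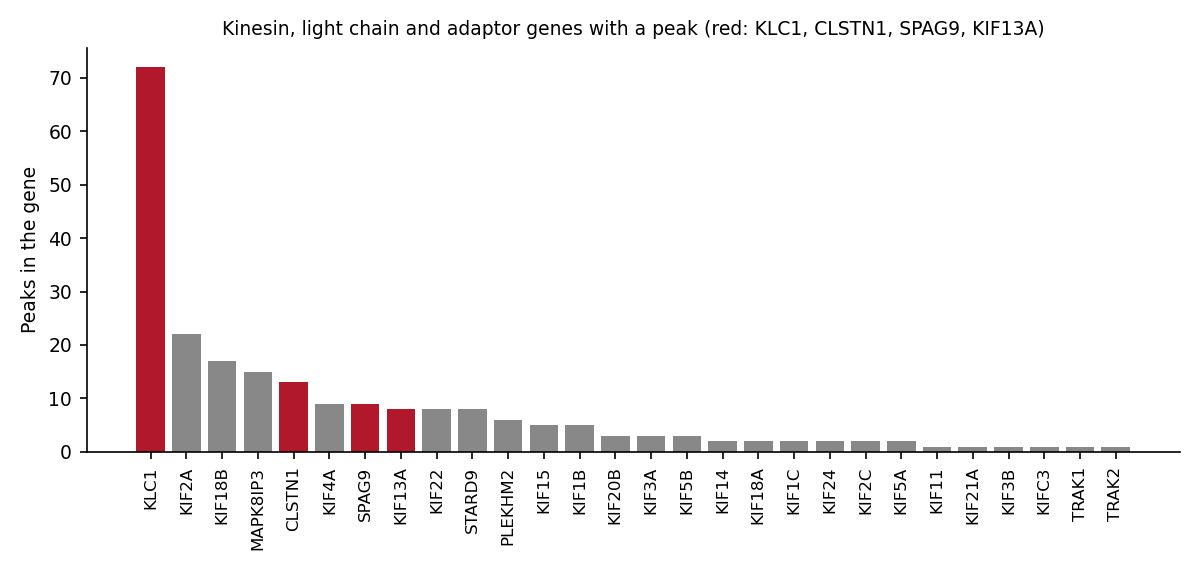
Number of peaks (y axis) in each of the 28 kinesin, light chain and adaptor genes with any peak (x axis), with the 4 genes described in red. KLC1 has 72 peaks, and the next gene, KIF2A, has 22.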

How the data were processed

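Per the study's methods, the authors trimmed reads with cutadapt 1.3, mapped them to hg19 with TopHat2 2.0.10, collapsed duplicates by position, alignment and molecular barcode, discarded mapping qualities under 10 with SAMtools, pooled the libraries and called peaks on each strand with MACS2 2.1.1.20160309 against size-matched input (fold cutoff 3, q 0.05). The deposited list gives coordinates, strand, summit and 1 signal value per peak (peak height), with no replicate values. Here, peaks were assigned with Python 3.11.15 and pysam 0.24.0 to GENCODE 44 (lifted to GRCh37), introns were numbered on the canonical transcript, and 18 mitochondrial peaks were left out. No peak ran past a chromosome end. Motif search read GRCh37 on the gene's strand, and the search and the merging of peaks were checked on simulated data. Of the study's splicing tables only exon coordinates were used. No group comparison existed, so no test was run. Peaks named are those beside listed exons, the tallest per gene and those with ACTAAC; the 5 other pathway genes with most peaks are named, with tied genes. KLC1 exons, TAAC counts, the shares over all internal exons and further transport genes were chosen after values were seen. The genes and lists were chosen with earlier results of these data known.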

Additional observations from a re-analysis of the deposited data

How the results depend on the processing

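The 102 peaks of the 4 genes remained 102 when any overlap with the span or the whole peak inside it was required. They were 67 at or above the median height of all peaks, 59 after joining peaks within 50 nt, 76 after joining within 4 nt (chosen after seeing the data) and 0 on the opposite strand. The share with ACTAAC was 0.980% on the opposite strand, where all nuclear peaks had 0.687%; with ACTAAT added it was 6.86% beside 13.7%, and per joined run, a setting chosen after seeing the data, it was 6.78% beside 13.02%. At or above the median height it was 5.97% beside 12.6%. The intronic share of 78.4% was 95.1% by the canonical transcript alone. The counts of 3 and 5 listed exons with a peak kept within 1.5 times under 100 nt, 500 nt, peak centres and the height limit, with 2 and 5 the lowest, under the height limit. No paired analysis was possible because the libraries were pooled before peak calling, so no library could be left out. With no depth and no replicate heights, differences in height have no error here.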
